A study of Mus musculus with 51 samples.

Results

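The T cell attracting chemokines of these tumors and tumor cells were followed through every library, as 7 genes: the chemokines Cxcl9, Cxcl10, Cxcl11, Ccl5, Cxcl16 and Cx3cl1, and the receptor gene Cxcr3. They were chosen by symbol, as 7 of the 40077 genes in the table, and each symbol named 1 gene. The study asked what depleting, overexpressing or inhibiting UBA1, the enzyme that activates ubiquitin at the start of most ubiquitination, does to tumors and to tumor cells grown with or without IFN-γ. RNA was sequenced in 51 libraries of mouse origin, 35 from tumors and 16 from cultured Myc-CaP prostate cancer cells.

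B16-BL6 melanoma tumors carried a control guide (sgNC, genotype WT, n = 3) or a guide against Uba1 (sgUba1, genotype Uba1-depletion, n = 4). Myc-CaP tumors formed 3 separate experiments. In the first, sgNC (WT, n = 3) was set against sgUba1 (Uba1-depletion, n = 7). In the second, tumors with an empty vector (EV, WT, n = 3) were set against tumors of the genotype Uba1-overexpression (OE, n = 4). In the third, WT tumors of animals given Vehicle (n = 6) were set against WT tumors of animals given TAK-243, an inhibitor of UBA1 (n = 5). The cells formed a drug experiment and a guide experiment, each of 4 groups with 2 libraries a group. In the drug experiment WT cells had no addition (Control), 50 nM TAK-243, IFN-γ, or both. In the guide experiment sgNC or sgUba1 cells had PBS or IFN-γ. All tumors grew in immunocompetent animals of the strain that the cells came from, aged 6 to 8 weeks per the study's methods, and were started in both flanks. Per the paper, Myc-CaP tumors grew in male FVB mice and B16-BL6 tumors in female C57BL/6 mice. Tumor line, host strain and host sex thus cannot be told apart where the 2 lines are compared. Which tumors shared an animal was not given, so p-values over tumors may treat flanks of 1 animal as separate, and they measure only the spread between these libraries. Per the paper, gene-depleted lines were expanded from sorted single cells. The labels do not give the line of each library, so Uba1 depletion and differences between clones cannot be told apart in sgUba1 against sgNC.

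CXCL9, CXCL10 and CXCL11 are the ligands of CXCR3, a receptor of activated T cells and natural killer (NK) cells, and their genes are classic targets of IFN-γ. CCL5 draws T cells, NK cells and monocytes, and its gene is a well known target of NF-κB. CXCL16 and CX3CL1 (fractalkine) are made as membrane-bound proteins that ADAM10 and ADAM17 can shed, and they bind CXCR6 and CX3CR1. In a tumor these chemokines can come from the cancer cells, from macrophages and dendritic cells, and, for CCL5, from T cells themselves.

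The genes of the 3 CXCR3 ligands lie side by side on the minus strand of chromosome 5 (build GRCm38): Cxcl9 at chr5:92321347-92328079, Cxcl10 at chr5:92346638-92348889 and Cxcl11 at chr5:92359544-92365485. The 250 bases before the annotated start of the first 2 are shown because Cxcl10 and Cxcl9, neighbours with a common receptor, gave different values in the cells and tumors described here. They are from RefSeq (GRCm38.p6), minus strand, 5′ to 3′, at chr5:92328080-92328329 and chr5:92348890-92349139, and capitals mark a match to the core of an interferon-stimulated response element.
Cxcl9: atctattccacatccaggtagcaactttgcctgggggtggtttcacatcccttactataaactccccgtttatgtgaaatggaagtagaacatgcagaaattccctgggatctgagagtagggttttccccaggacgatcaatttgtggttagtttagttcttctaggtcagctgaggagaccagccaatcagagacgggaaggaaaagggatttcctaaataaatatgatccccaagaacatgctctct
Cxcl10: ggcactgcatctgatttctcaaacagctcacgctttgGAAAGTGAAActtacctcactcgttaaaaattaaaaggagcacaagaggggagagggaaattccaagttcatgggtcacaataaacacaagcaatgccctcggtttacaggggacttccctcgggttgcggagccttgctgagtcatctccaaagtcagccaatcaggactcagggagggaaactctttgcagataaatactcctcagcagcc

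A set of 3 motifs was searched on both strands of these windows and of all 32851 promoters in the table. The core of the response element of type I interferons, searched as GAAA, any 2 bases and GAAA again, was in 2.98% of all promoters, TTCNNNGAA, the IFN-γ activated site (GAS), in 7.02%, and a form of the NF-κB site, searched as GGG, any 2 bases and TTTCC, in 1.41%. Of the 4 members with an entry (Cxcl9, Cxcl10, Cx3cl1 and Cxcr3), Cxcl10 alone held a match in its window, GAAAGTGAAA, from 213 to 204 bases before the start, and it overlapped no other motif. No match to the other letters was in the Cxcl10 window, and none to any of the 3 in the other windows. This says only that these letters are not there. Other forms of these sites, the NF-κB site among them, were not searched and may be present. Ccl5, Cxcl11 and Cxcl16 were not matched.

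Ccl5 lies on chromosome 11 (83525778 to 83530518, minus strand), Cxcl16 on chromosome 11 (70453983 to 70459984, minus strand), Cx3cl1 on chromosome 8 (94772009 to 94782427, plus strand) and Cxcr3 on chromosome X (101731535 to 101734269, minus strand). Cxcl11 is annotated as a polymorphic pseudogene. Of its 31-base words, 42.2% also occur in other genes, against 0.574% for Cxcl9, and its estimated count was not whole in 49 libraries, so Cxcl11 values may hold reads of other genes. Exons of Cxcl16 share 552 bases with Zmynd15 on the other strand, and exons of Cxcl10 share 133 bases with Art3. Art3 had 1083 to 1932 counts in the B16-BL6 tumors and 0 in the cells of the drug experiment.

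Library totals ran from 8652097 to 38032395 estimated counts, and the limit that a count of 0 allows, 3 counts a library, stood at 0.0822 to 0.339 CPM, the count scaled to the library's size. Uba1 itself was lower in sgUba1 than in sgNC in B16-BL6 tumors (226 against 426 CPM) and in cells (289 against 529 CPM), and higher in OE than in EV tumors (706 against 293 CPM). In the Myc-CaP tumors labelled sgUba1, Uba1 stood below every sgNC tumor in replicates 1 to 3 (197 to 210 CPM against 319 to 337 CPM). In replicates 4 to 7 it stood above every sgNC tumor (361 to 383 CPM). The members and gene lists of that comparison are therefore also given without those 4, called in doubt below for their Uba1 RNA only. RNA does not measure UBA1 protein, and the paper reports partial depletion in the cells by immunoblot and sequencing, with independent guides. Which guide each tumor carried is not given by the labels. All samples carry the cell type label Epithelial, but in B16-BL6 tumors 6 epithelial markers summed to 2.18 to 3.54 CPM and 7 melanoma markers to 12477 to 16306 CPM. In Myc-CaP cells Epcam, an epithelial marker, had a group mean of at most 0.0670 CPM. Macrophage and monocyte markers summed to 14.3 to 27.1 CPM in cells, 156 to 802 CPM in Myc-CaP tumors and 145 to 282 CPM in B16-BL6 tumors.

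The tumor types differed in which chemokine led. Levels of different genes are compared here in TPM, the share of transcripts after division by their length. In the 7 B16-BL6 tumors Cxcl10 led with a median of 48.0 TPM (24.8 to 66.1), well above Ccl5 (6.38; 3.60 to 8.94), Cxcl9 (4.38; 1.47 to 6.70), Cxcl16 (3.17; 1.10 to 3.98), Cxcr3 (2.67; 1.54 to 3.49) and Cxcl11 (1.94; 1.48 to 2.42), with Cx3cl1 last at 0.778 TPM (0.705 to 1.42). From Ccl5 down to Cxcl11 the ranges of neighbours in this order overlapped.

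In the 28 Myc-CaP tumors Cx3cl1 and Ccl5 led, with medians of 7.98 TPM (2.70 to 12.7) and 7.78 TPM (0.900 to 25.3). Cxcl16 (3.90 TPM), Cxcl10 (2.23 TPM), Cxcl11 (2.0 TPM) and Cxcl9 (1.82 TPM) followed, with overlapping ranges, and Cxcr3 was last at 0.194 TPM. The ratio of Cxcl10 to Cxcl9 in TPM was 8.40 to 18.6 in B16-BL6 tumors, above 1 in 7 of 7, and 0.229 to 3.34 in Myc-CaP tumors, above 1 in 13 of 28. By median, cultured Myc-CaP cells shared the lead of Cx3cl1 (5.23 TPM in the drug experiment and 1.77 TPM in the guide experiment). The drug experiment pools treated and untreated cells. In single libraries of it Cxcl10 reached 20.5 TPM and Ccl5 12.7 TPM, against at most 10.1 TPM for Cx3cl1. The cells had almost no Cxcl16, which reached 10.9 TPM in the tumors and at most 0.0908 TPM in the cells of the drug experiment. The tumor lines and experiments were separate libraries, and the tumor lines grew in different host strains. These levels are therefore set side by side and not tested.

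**Figure D1:**
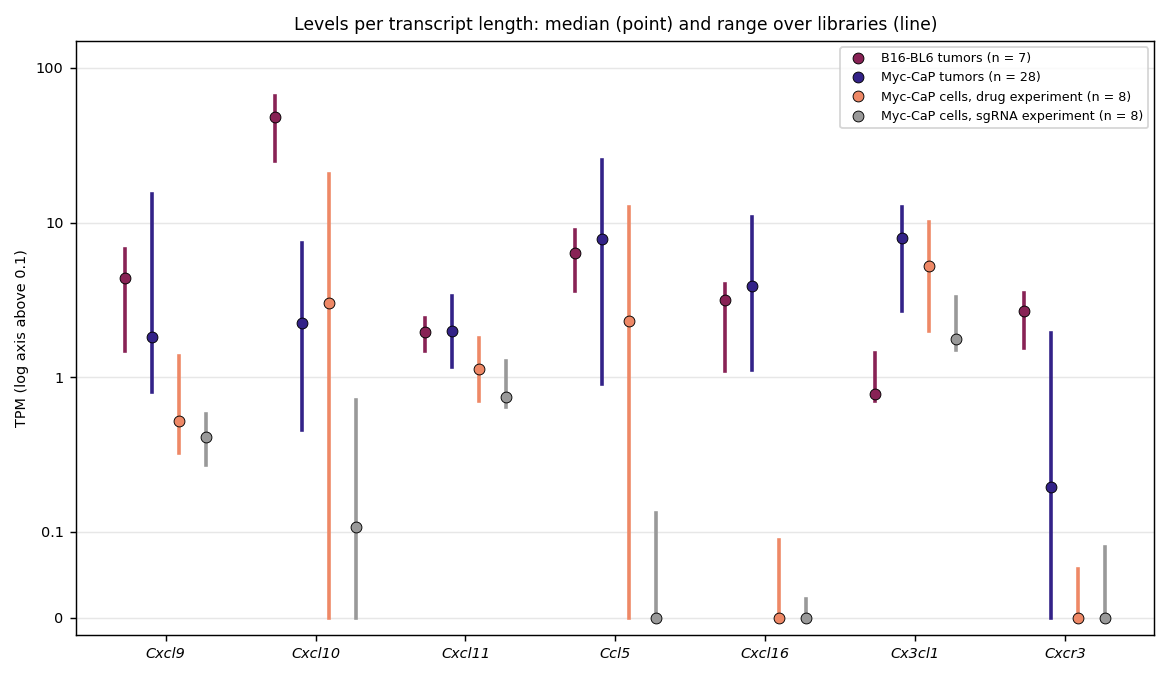
Median level (points) and range over libraries (lines) of each gene in TPM, on a log axis above 0.1, in B16-BL6 tumors (7 libraries), Myc-CaP tumors (28), drug experiment cells (8) and guide experiment cells (8). By median Cxcl10 led in B16-BL6 tumors at 48.0 TPM, Cx3cl1 led in the other 3 sets, and Cxcl16 was at or near 0 in cells. In drug experiment cells the highest Cxcl10 value (20.5 TPM) was above the highest Cx3cl1 value (10.1 TPM).

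Cxcr3 also set the tumor types apart. It had 44 to 113 counts (1.57 to 3.74 CPM) in the 7 B16-BL6 tumors and 0 to 22 counts (0 to 1.78 CPM) in the 28 Myc-CaP tumors, where 11 were at or under 3 counts. In CPM only replicates 1 and 3 of the Myc-CaP tumors labelled sgUba1 reached the B16-BL6 range. The 18 measured T and NK cell markers, which include Cd3e and Cd8a, summed to 9.22 to 14.3 CPM in B16-BL6 tumors and 6.73 to 40.2 CPM in Myc-CaP tumors, so the ranges of that sum overlapped widely. Dendritic cell markers summed to 94.2 to 115 CPM in B16-BL6 and 11.8 to 37.0 CPM in Myc-CaP tumors. These sums are given without a split by gene or by cell of origin, so they do not count dendritic cells. Fewer cells of a type and less RNA per cell cannot be told apart in any of these bulk libraries.

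In B16-BL6 tumors with depleted Uba1 the CXCR3 ligands Cxcl9 and Cxcl10 and the CXCR6 ligand Cxcl16 had the highest fold changes of the 7 genes, but none passed the test, and Cxcr3 itself had a fold change below 0. The test was edgeR's quasi-likelihood test, with p adjusted over all genes tested (Benjamini-Hochberg). It called 0 of 7 members, against 0.724% of the 17539 genes tested, and 3 members had an unadjusted p under 0.05, against 16.3% of all genes.

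Cxcl9 stood at 2.85, 2.95 and 8.03 CPM in sgNC and at 12.0, 8.36, 10.5 and 8.04 CPM in sgUba1. All 4 sgUba1 tumors were above all 3 controls, yet sgNC replicate 4 sat at the lower edge of the sgUba1 range. The log2 fold change was 1.08 ± 0.34 (SE; edgeR adjusted p = 0.182). Without sgNC replicate 4 it was 1.74 (edgeR adjusted p = 0.0072), so 1 control tumor decided this call.

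Cxcl10 stood at 15.5, 17.8 and 29.4 CPM in sgNC and at 38.6, 22.8, 36.4 and 35.2 CPM in sgUba1. In sgUba1 3 of the 4 tumors were above every control, and the same control, replicate 4, was again the highest of its group. This gave a log2 fold change of 0.67 ± 0.23 (SE; edgeR adjusted p = 0.211). Cxcl11 barely varied, from 2.69 to 3.09 CPM in sgNC and 2.80 to 3.54 CPM in sgUba1, with a log2 fold change of 0.18 (edgeR adjusted p = 0.574).

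Ccl5 was low in both groups, at 0.794, 0.780 and 1.56 CPM in sgNC and 1.33, 1.34, 1.90 and 0.847 CPM in sgUba1, and these overlapped (log2 fold change 0.37, edgeR adjusted p = 0.608). Cxcl16 stood at 4.86, 2.02 and 4.97 CPM in sgNC and 6.61, 6.11, 6.39 and 5.40 CPM in sgUba1. All 4 sgUba1 tumors were above all controls, and the log2 fold change was 0.64 ± 0.26 (SE; edgeR adjusted p = 0.276). Among all genes tested, 7.29% had every sgUba1 tumor above every control, and so did 2 of the 7 members, Cxcl9 and Cxcl16.

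Cx3cl1 lay between 1.01 and 1.98 CPM in all 7 tumors, and its fold change took a different sign on the TPM scale. Cxcr3 stood at 3.74, 2.46 and 2.81 CPM in sgNC and 1.57, 3.69, 1.67 and 2.80 CPM in sgUba1. The groups overlapped, with a log2 fold change of -0.30 ± 0.30 (SE; edgeR adjusted p = 0.650).

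Markers of macrophages and of T and NK cells differed in the same direction as Cxcl9, Cxcl10 and Cxcl16 in these tumors, and their part in the result was not tested. Not every list did so. Endothelial markers had 1 of 6 fold changes above 0 (median log2 fold change -0.11). Dendritic cell markers had 6 of 8 above 0 (median 0.23), while their sum was 106 to 115 CPM in sgNC and 94.2 to 110 CPM in sgUba1. Macrophage and monocyte markers summed to 145 to 227 CPM in sgNC and 235 to 282 CPM in sgUba1, with 13 of 13 tested having a fold change above 0 and 0 called (median log2 fold change 0.57, against 0.01 over all genes). Ptprc (CD45, on all leukocytes) stood at 5.23, 4.48 and 9.42 CPM in sgNC and 10.3 to 11.6 CPM in sgUba1, with sgNC replicate 4 again highest. Of the T and NK cell markers 6 could be tested, with 0 called (median 0.79). Of 20 other chemokines tested 18 had a fold change above 0 and 0 were called (median 0.52), while IFN-γ signaling (10 tested, median 0.29) and NF-κB signaling genes (11 tested, median -0.02) had 0 called.

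**Figure D2:**
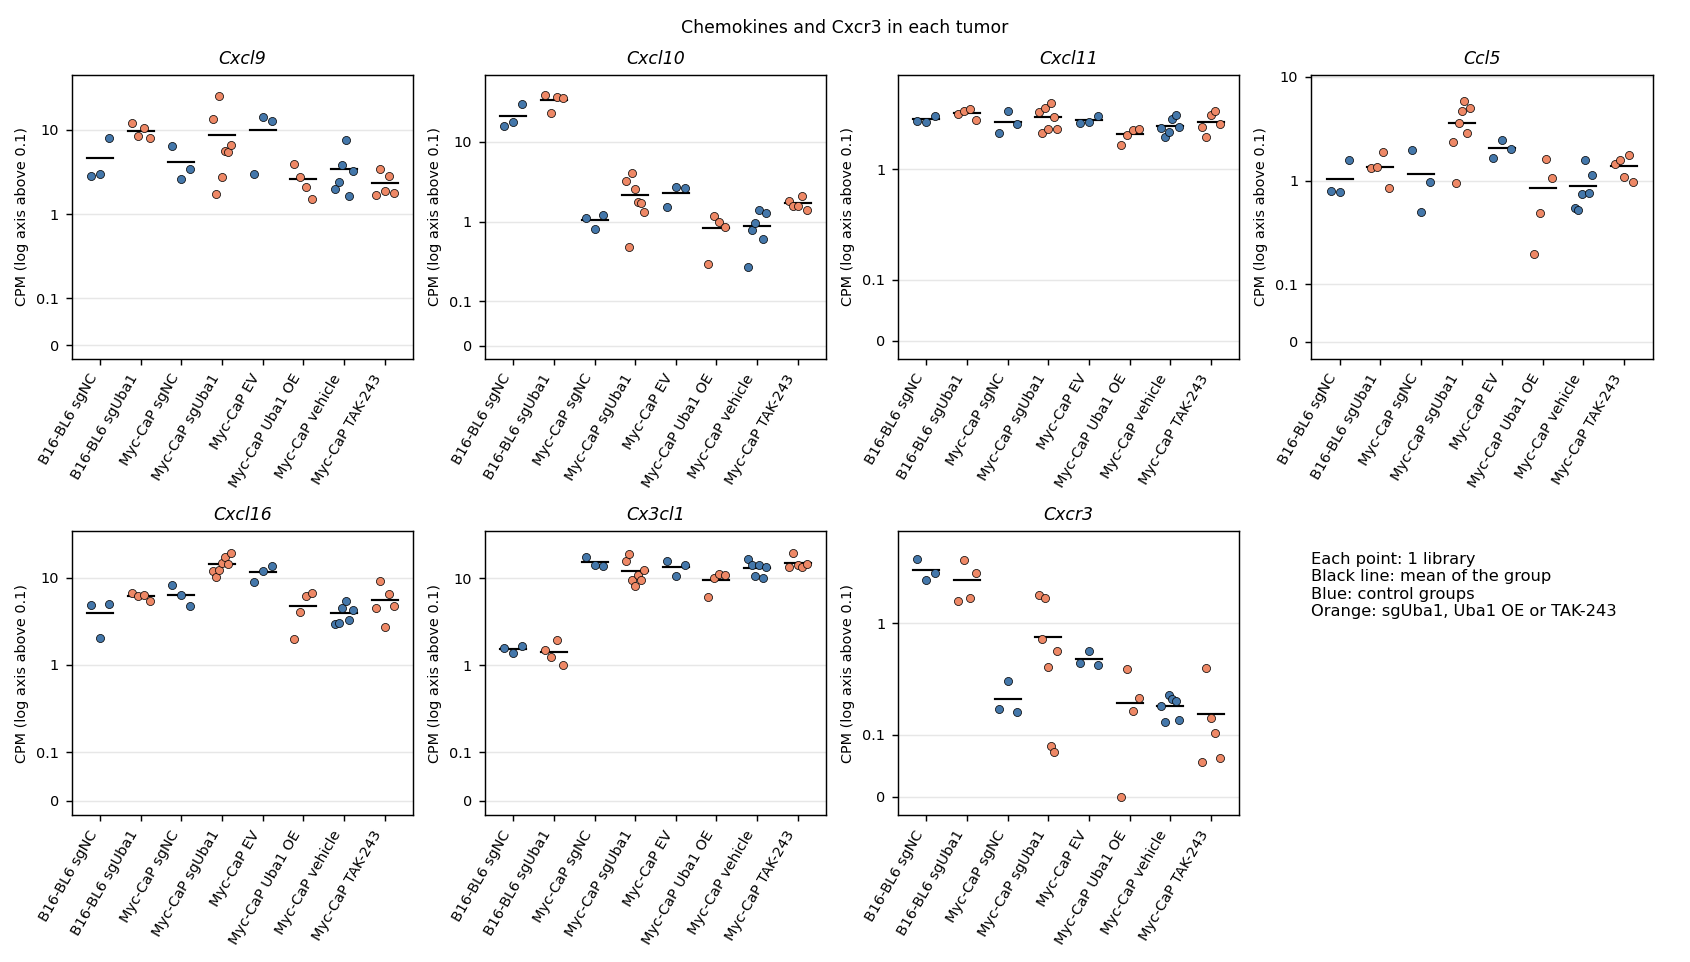
CPM of each of the 7 genes in each of the 35 tumors, by group, with control groups in blue, altered groups in orange and the group mean as a black line. Cxcl16 in Myc-CaP tumors labelled sgUba1 (10.2 to 19.0 CPM) lay above sgNC (4.74 to 8.15 CPM), and OE tumors (1.98 to 6.63 CPM) lay below EV (8.95 to 13.6 CPM).

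In Myc-CaP tumors labelled sgUba1, Cxcl16 was higher than in sgNC tumors, the single member that passed the test in any tumor comparison. It was 1 of 6 members tested, against 3.04% of the 16202 genes tested, and 2 members had an unadjusted p under 0.05, against 23.7% of all genes. Cxcr3 was too low to be tested.

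Cxcl16, the membrane-bound ligand of CXCR6, stood at 8.15, 6.23 and 4.74 CPM in sgNC. In the 7 tumors labelled sgUba1 it ran from 10.2 to 19.0 CPM with a median of 14.2 CPM, all above all controls. Among all genes tested 5.54% had every such tumor above every control, and among the 6 tested members Cxcl16 alone did. The log2 fold change was 1.15 ± 0.24 (SE; edgeR adjusted p = 0.0359). The call was lost without sgNC replicate 2 (edgeR adjusted p = 0.152) or replicate 3 (0.123) and without any one of sgUba1 replicates 1, 4, 5, 6 and 7 (0.0512 to 0.0723). Without the 4 tumors whose Uba1 was above the controls, the log2 fold change was 0.83 ± 0.23 (SE; edgeR adjusted p = 0.154).

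Ccl5 stood at 1.97, 0.503 and 0.964 CPM in sgNC and ran from 0.953 to 5.87 CPM, with a median of 3.59 CPM, in tumors labelled sgUba1. Of the 7, 6 were above every control, and the 4 highest values were in replicates 4, 5, 7 and 3. On the log2 scale the change was 1.64 ± 0.56 (SE; edgeR adjusted p = 0.121), and without the 4 tumors in doubt it was 0.97 (edgeR adjusted p = 0.433). DESeq2 called Ccl5 too (adjusted p = 0.0321).

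The CXCR3 ligands Cxcl9 and Cxcl10 spread widely. Cxcl9 stood at 6.35, 2.61 and 3.45 CPM in sgNC and from 1.75 to 25.2 CPM, median 5.53 CPM, in tumors labelled sgUba1, with the 2 highest values in replicates 3 and 1 (25.2 and 13.5 CPM) and the lowest in replicate 2. Cxcl10 stood at 1.11, 0.804 and 1.2 CPM in sgNC and from 0.476 to 4.07 CPM, median 1.73 CPM, in tumors labelled sgUba1, highest and lowest in the same tumors, replicates 3 and 2. The log2 fold changes were 1.06 ± 0.75 for Cxcl9 and 1.04 ± 0.54 for Cxcl10 (SE; edgeR adjusted p = 0.425 and 0.272). Without the 4 tumors in doubt they were 1.69 ± 0.84 and 1.29 ± 0.70 (SE; edgeR adjusted p = 0.325 and 0.360).

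Cxcl11 overlapped fully between groups, at 2.14 to 3.42 CPM in sgNC and 2.14 to 4.05 CPM in tumors labelled sgUba1 (log2 fold change 0.14, edgeR adjusted p = 0.781, and 0.16 with adjusted p = 0.814 without the 4 tumors in doubt). Cx3cl1 stood at 17.3, 14.4 and 14.0 CPM in sgNC and 8.12 to 19.1 CPM, median 10.9 CPM, in tumors labelled sgUba1, also overlapping (log2 fold change -0.31, edgeR adjusted p = 0.481, and -0.04 with adjusted p = 0.949 without the 4 tumors in doubt).

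Cxcr3 had 2, 3 and 2 counts in sgNC, at or under the limit of 3, and 22, 9, 21, 5, 1, 1 and 6 counts in replicates 1 to 7 of those labelled sgUba1. The higher counts were in replicates 1 to 3, the tumors with the lower Uba1. Summed over tumors, 65 counts against 7 gave a depth-corrected ratio of 3.65, with a 95% interval of 1.67 to 9.44 that covers counting error only and not the spread between tumors. Without the 4 tumors in doubt, 52 counts against 7 gave a ratio of 6.75 (3.05 to 17.6).

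Macrophage and monocyte markers moved with Cxcl16 in this comparison, and their part in it was not tested. They summed to 266 to 558 CPM in sgNC and 473 to 802 CPM in tumors labelled sgUba1. Of 13 tested, 4 rose, namely Ly6c2 (log2 fold change 2.36), Adgre1 (1.15), Cd68 (0.83) and C1qa (0.82), with edgeR adjusted p of 0.0426, 0.0276, 0.0300 and 0.0300. Without the 4 tumors in doubt 0 of 12 were called, and so were 0 of 6 members, against 0.00638% of all genes, with 1 member at an unadjusted p under 0.05, against 18.9% of all genes. T and NK cell markers summed to 17.5 to 19.6 CPM in sgNC and 19.3 to 40.2 CPM in tumors labelled sgUba1, with 0 of 7 called. Other chemokines had 19 of 21 fold changes above 0 and 0 called (median 0.54), and the IFN-γ (10 tested) and NF-κB (10 tested) genes had 0 called, with medians of 0.11 and -0.23. Without the 4 tumors in doubt T and NK cell markers summed to 19.3 to 29.1 CPM (0 of 5 called, median 0.36), other chemokines had 0 of 19 called (median 0.50), and the IFN-γ and NF-κB genes had 0 of 10 each (medians 0.08 and -0.25).

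With Uba1 overexpressed, every one of the 6 members tested had a fold change below 0, and for Cxcl10, Cxcl11, Ccl5 and Cxcl16 all 4 OE tumors lay below all 3 EV tumors. None passed edgeR's test, which called 0 of 6 members and 0.0269% of the 14853 genes tested, while 4 members had an unadjusted p under 0.05, against 18.2% of all genes. Of all genes tested 10.1% had every OE tumor below every EV tumor, against 4 of 6 members.

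Cxcl9 stood at 2.95, 14.0 and 12.9 CPM in EV and 3.96, 2.72, 2.11 and 1.5 CPM in OE. EV replicate 1 sat within the OE range, so the groups overlapped. The log2 fold change was -1.95 ± 0.52 (SE; edgeR adjusted p = 0.145). DESeq2 called it (adjusted p = 0.0108).

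Cxcl10 stood at 1.53, 2.71 and 2.64 CPM in EV and 0.297, 1.17, 0.976 and 0.855 CPM in OE. The lowest OE value, in replicate 1, rested on 3 counts, the limit of detection set here. Its log2 fold change was -1.45 ± 0.42 (SE; edgeR adjusted p = 0.156). Cxcl11 differed less, at 2.62 to 3.06 CPM in EV and 1.68 to 2.35 CPM in OE (log2 fold change -0.42, edgeR adjusted p = 0.340).

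Cxcl16 stood at 8.95, 11.8 and 13.6 CPM in EV and 1.98, 3.99, 6.10 and 6.63 CPM in OE. Every OE tumor was below every EV tumor, and OE replicate 1 was again the lowest. Its log2 fold change was -1.29 ± 0.36 (SE; edgeR adjusted p = 0.153), which DESeq2 also called (adjusted p = 0.0242). Ccl5 stood at 1.64, 2.49 and 2.01 CPM in EV and 0.198, 0.486, 1.63 and 1.07 CPM in OE (log2 fold change -1.23 ± 0.54 SE, edgeR adjusted p = 0.274).

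Cx3cl1 stood at 15.8, 10.6 and 14.4 CPM in EV and 6.03, 10.02, 11.3 and 10.9 CPM in OE, and the groups overlapped (log2 fold change -0.51, edgeR adjusted p = 0.303). Cxcr3 had 4, 5 and 4 counts in EV and 0, 4, 2 and 2 counts in OE, too few for a test. T and NK cell markers summed to 23.3 to 29.8 CPM in EV and 6.73 to 19.6 CPM in OE, lowest in OE replicate 1, with 0 of 3 tested called. Macrophage and monocyte markers summed to 374 to 454 CPM in EV and 156 to 493 CPM in OE, again lowest in replicate 1, with 0 of 12 called (median -0.47). Ptprc stood at 14.6, 22.6 and 21.9 CPM in EV and 7.12, 11.1, 16.3 and 10.5 CPM in OE. Their part in the lower chemokine values was not tested.

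**Figure D3:**
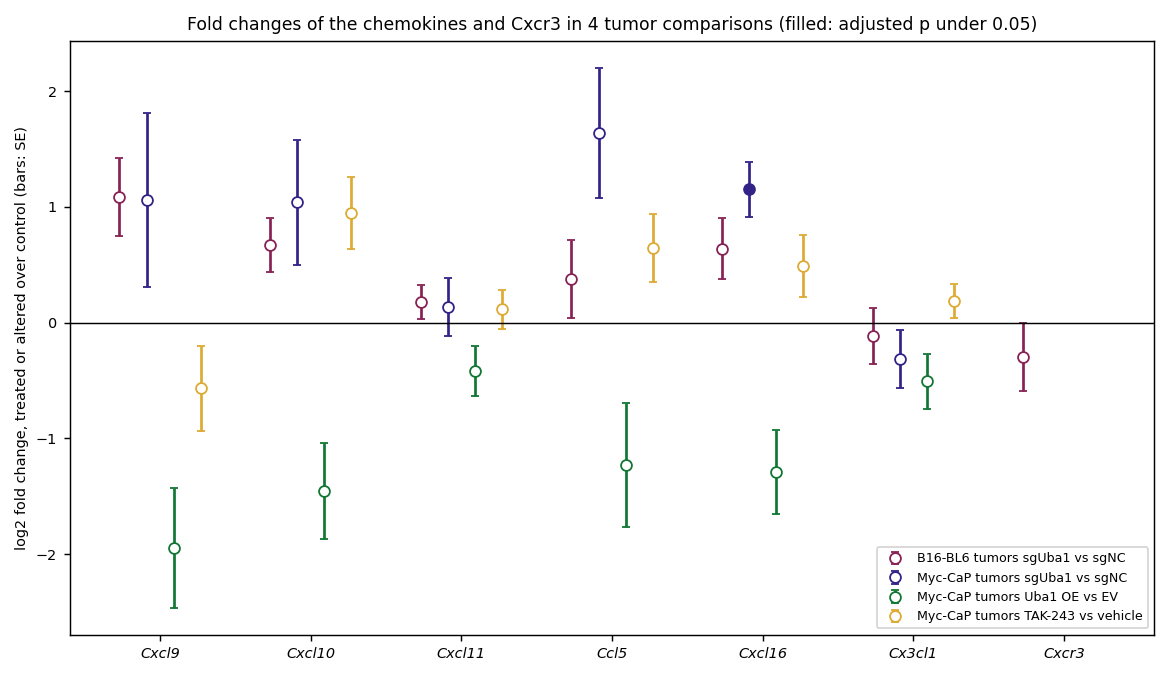
Log2 fold change (points) and its SE (lines) of each gene in the 4 tumor comparisons, from edgeR; a filled point marks an adjusted p under 0.05, and genes too low to test have no point. Only Cxcl16 in Myc-CaP tumors labelled sgUba1 is filled (1.15), and all 6 points of OE against EV lie below 0.

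In tumors of TAK-243-treated animals Cxcl10 was above vehicle in every tumor while Cxcl9, its neighbour, was not. EdgeR called 0 of 6 members, against 0.145% of the 17299 genes tested, and 2 had an unadjusted p under 0.05, against 15% of all genes. Cxcl10 ran from 0.273 to 1.39 CPM, median 0.868 CPM, in the 6 vehicle tumors and stood at 1.81, 1.56, 1.58, 2.12 and 1.40 CPM in the 5 TAK-243 tumors. The groups did not overlap, which held for 0.896% of all genes in that direction and for 1 of the 6 members. The log2 fold change was 0.95 ± 0.31 (SE; edgeR adjusted p = 0.193).

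Cxcl9 ran from 1.65 to 7.53 CPM, median 2.80 CPM, with vehicle and stood at 1.70, 3.44, 1.90, 2.85 and 1.77 CPM with TAK-243 (log2 fold change -0.57 ± 0.37 SE, edgeR adjusted p = 0.487). All 5 TAK-243 tumors lay inside the vehicle range. Cxcl11 gave 1.97 to 3.14 CPM with vehicle, and its log2 fold change was 0.12 (edgeR adjusted p = 0.773).

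Ccl5 ran from 0.517 to 1.60 CPM, median 0.750 CPM, with vehicle and stood at 1.45, 1.59, 1.09, 1.77 and 0.964 CPM with TAK-243 (log2 fold change 0.64 ± 0.30 SE, edgeR adjusted p = 0.332). Cxcl16 ran from 2.97 to 5.45 CPM, median 3.77 CPM, with vehicle and stood at 4.51, 9.12, 2.71, 6.43 and 4.76 CPM with TAK-243 (log2 fold change 0.49, edgeR adjusted p = 0.415). Both overlapped between groups. Cx3cl1 ran from 9.98 to 16.4 CPM with vehicle and stood at 13.3, 19.5, 14.3, 13.5 and 14.4 CPM with TAK-243 (log2 fold change 0.19, edgeR adjusted p = 0.566), and Cxcr3 had 4 to 8 counts with vehicle and 2, 11, 4, 3 and 2 counts with TAK-243, too few for a test.

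Neutrophil markers differed in this comparison. Of 5 tested, 3 rose with TAK-243, S100a9 (log2 fold change 4.03), Retnlg (3.68) and S100a8 (3.63), and the list summed to 7.91 to 12.4 CPM with vehicle and 18.5 to 31.5 CPM with TAK-243. T and NK cell markers summed to 11.9 to 19.8 CPM with vehicle and 12.6 to 20.01 CPM with TAK-243, and macrophage and monocyte markers to 230 to 313 and 249 to 527 CPM, with 0 of 12 called (median 0.53). The part of neutrophils in the Cxcl10 value was not tested. Other chemokines had 21 of 23 fold changes above 0 and 0 called (median 0.63), and 0 IFN-γ (10 tested, median 0.07) or NF-κB genes (11 tested, median 0.00064) were called.

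The receptors of the members (4 or 5 tested) and the enzymes that process them (3 or 4 tested) had 0 called in each of the 4 tumor comparisons. The sgUba1 effects in B16-BL6 and Myc-CaP tumors were compared in 1 model. It called 0 of 7 members, against 1.52% of all genes tested, so no member's effect was shown to differ between the tumor lines. The difference (B16-BL6 minus Myc-CaP, log2) was 0.01 ± 0.93 for Cxcl9, -0.53 ± 0.38 for Cxcl16, -1.28 ± 0.71 for Ccl5 and -2.14 ± 1.05 for Cxcr3 (SE; edgeR adjusted p = 1, 0.486, 0.354 and 0.291). Without the 4 tumors in doubt the Cxcr3 difference was -3.02 ± 0.67 (SE; edgeR adjusted p = 0.0465), against 1.58% of all genes called. It rests on control libraries of Myc-CaP with 2 or 3 Cxcr3 counts each.

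In cultured Myc-CaP cells, which hold no other cell type by label, TAK-243 raised Cxcl10 and Ccl5 from no detected count. T and NK cell markers in these 8 libraries summed to 2.68 to 8.26 CPM, and Ptprc had 0 to 2 counts. Without IFN-γ, edgeR called 4 of the 5 members tested, all higher with TAK-243, against 66.3% of the 14551 genes tested (32.3% higher). With IFN-γ it called 4 of 5, against 68.2% (32% higher). Cxcl16 and Cxcr3 were too low to be tested. Ccl5 was at 0 without TAK-243, and Cxcl10 was at 0 in Control and low with IFN-γ alone. Both thus met the filter on low counts only through the TAK-243 libraries, so the 5 tested were in part chosen by their response. With so many genes called, a call alone says little about the members, and sizes are given.

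Cxcl10 had 0 counts in both Control libraries and 51 and 44 counts (3.13 and 3.53 CPM) with TAK-243, at least 17.6-fold higher when 3 counts a library are set for Control (edgeR adjusted p = 1.28e-11). With IFN-γ alone it had 8 and 10 counts (0.563 and 0.637 CPM), at least 3.17-fold above Control (edgeR adjusted p = 0.000118). With only the groups compared in the fit, Cxcl10 was too low for this test, so the p-value needs the TAK-243 libraries. With TAK-243 and IFN-γ together it had 185 and 208 counts (13 CPM in each). Both libraries of the combination were above every other library of the experiment. TAK-243 in the presence of IFN-γ gave a log2 fold change of 4.42 ± 0.26, and IFN-γ in the presence of TAK-243 gave 1.97 ± 0.19 (SE; edgeR adjusted p = 3.1e-15 and 2.45e-08).

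Ccl5 had 0 counts in all 4 libraries without TAK-243, with or without IFN-γ. It had 16 and 19 counts (0.981 and 1.52 CPM) with TAK-243 and 40 and 38 counts (2.81 and 2.38 CPM) with both. These were at least 6.61-fold and at least 12.9-fold above the cells without the drug (edgeR adjusted p = 2.83e-06 and 2.03e-08). IFN-γ alone thus gave no detected Ccl5 at this depth. Within TAK-243 the log2 fold change for IFN-γ was 1.07 ± 0.40 (SE; edgeR adjusted p = 0.0873).

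Cxcl9 was detected in all 8 libraries but moved little. It stood at 0.574 and 1.19 CPM in Control, 1.23 and 0.721 CPM with TAK-243, 0.774 and 0.828 CPM with IFN-γ, and 2.67 and 1.88 CPM with both. The combination alone stood above the rest, with a log2 fold change for TAK-243 in the presence of IFN-γ of 1.49 ± 0.42 (SE; edgeR adjusted p = 0.00258). That call was lost without combination replicate 1 (edgeR adjusted p = 0.0540). IFN-γ in Control gave -0.14 and TAK-243 without IFN-γ gave 0.18 (edgeR adjusted p = 0.876 and 0.759).

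Cxcl11 stood at 0.957 and 0.998 CPM in Control, 2.15 and 1.92 CPM with TAK-243, 1.34 and 1.08 CPM with IFN-γ and 1.48 and 1.44 CPM with both. It was highest with TAK-243 alone, where the log2 fold change was 1.06 ± 0.37 (SE; edgeR adjusted p = 0.0135). The call was lost with DESeq2 (adjusted p = 0.121) and without replicate 1 of TAK-243 (0.103) or of Control (0.0575). In the presence of IFN-γ it was 0.27 (edgeR adjusted p = 0.542).

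Cx3cl1 had the highest median TPM of the members over the 8 libraries. It stood at 5.80 and 4.24 CPM in Control and 11.8 and 8.98 CPM with TAK-243. With IFN-γ it stood at 5.42 and 8.09 CPM, and with both at 13.9 and 14.3 CPM. All 4 libraries with TAK-243 were above all 4 without it. The log2 fold change for TAK-243 was 1.06 ± 0.18 without and 1.05 ± 0.16 with IFN-γ (SE; edgeR adjusted p = 5.93e-06 and 1.42e-06). IFN-γ gave 0.44 in Control and 0.43 ± 0.15 (SE) in TAK-243, neither past the test (edgeR adjusted p = 0.0915 and 0.0721).

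IFN-γ alone thus called 1 of 5 members in Control, against 29% of all genes, and 1 of 5 in TAK-243, against 10.5%. That member was Cxcl10 both times, which passed the filter on low counts only through the TAK-243 libraries. Ccl5, 1 of the 5, was at 0 in Control with and without IFN-γ. Neither the IFN-γ test in Control nor the interaction below gave a usable estimate for it. Comparisons of the drug experiment share their control libraries. The interaction of TAK-243 with IFN-γ was called for 0 of 5 members, against 2.38% of all genes, and 2 had an unadjusted p under 0.05, against 14.8% of all genes. These lay in opposite directions, at -4.23 for Cxcl10 and 1.31 for Cxcl9 on the log2 scale (edgeR adjusted p = 0.104 and 0.337), and the value for Cxcl10 is no measure of size, since Control was at 0.

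**Figure D4:**
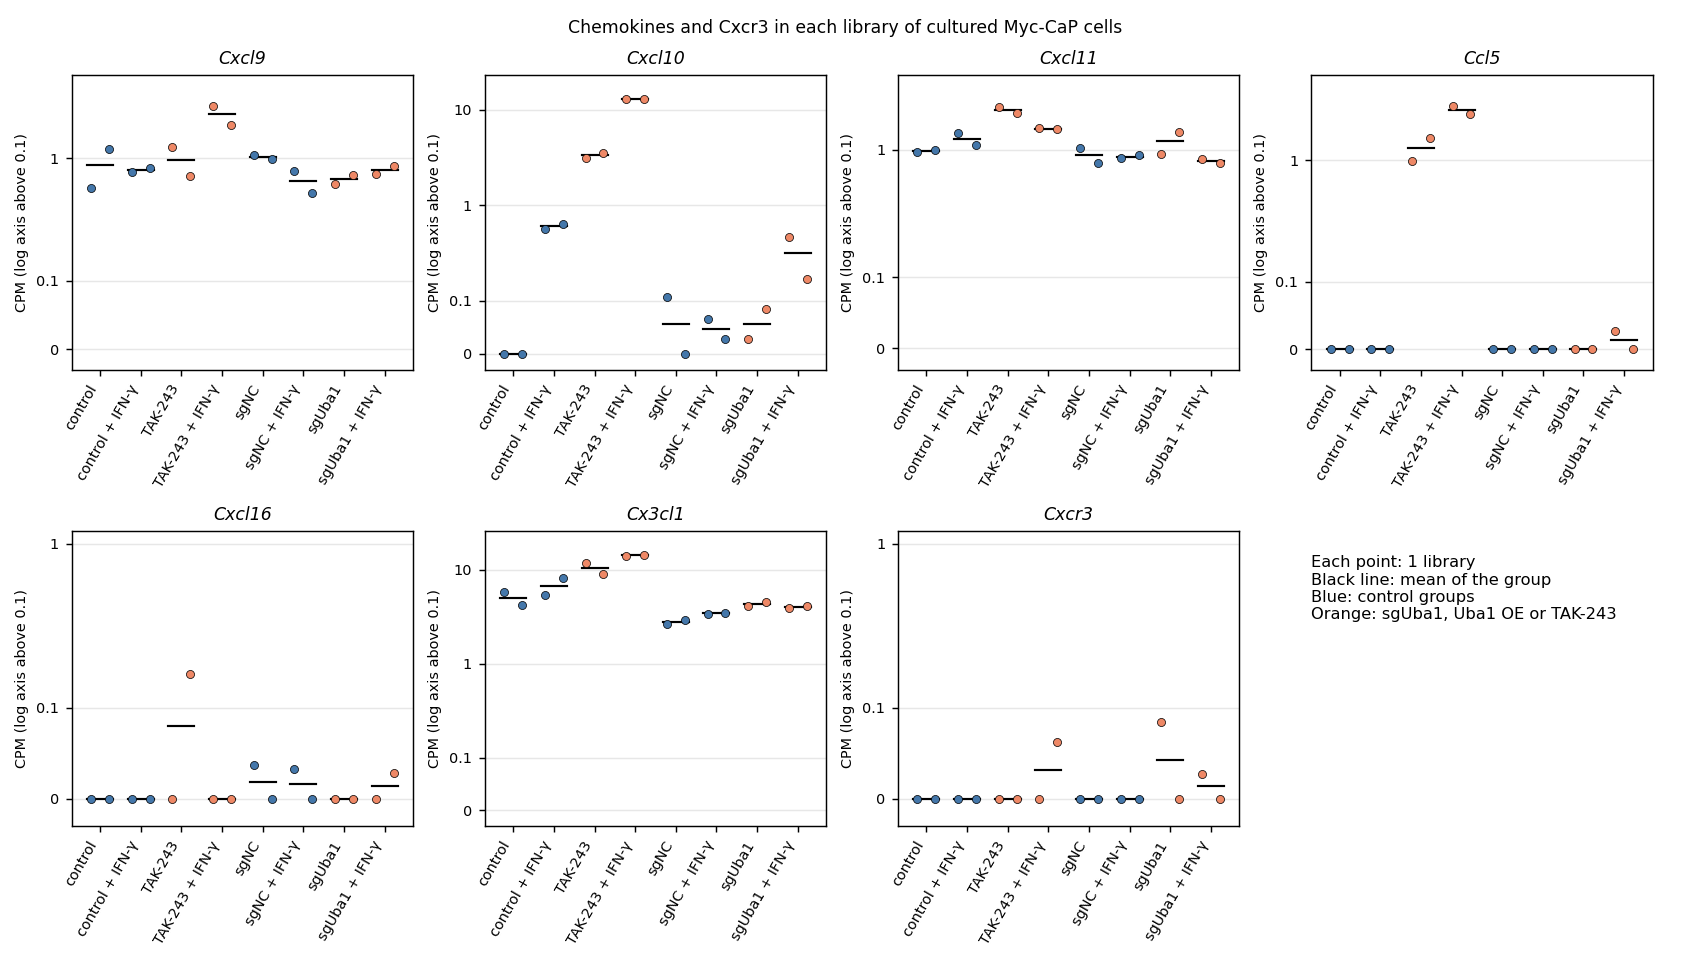
CPM of each gene in each of the 16 cell libraries, by group, with 2 libraries a group and the group mean as a black line. Cxcl10 and Ccl5 rise from 0 to 13 and 2.38 to 2.81 CPM with TAK-243 and IFN-γ together, while no Cxcl10 count in the guide experiment is above 17.

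NF-κB and IFN-γ signaling genes moved with these chemokines. Of 11 NF-κB genes 10 rose and 1 fell with TAK-243, both without IFN-γ (median log2 fold change 1.01) and with it (0.88). On the log2 scale Relb rose by 3.52 and 3.59, Nfkb2 by 2.45 and 2.29 and Nfkbia, which encodes the inhibitor IκBα, by 2.12 and 1.91, while Tnfrsf1a, the TNF receptor gene, fell by 0.95 and 0.97. Of 10 IFN-γ signaling genes 7 rose and 2 fell with TAK-243 in both settings. Socs1, a feedback inhibitor of the receptor's kinases, rose by 3.36 and 2.36, and Jak2, a kinase of that receptor, fell by 0.54 and 0.52. These counts stand beside 66.3% and 68.2% of all genes called.

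IFN-γ itself raised 6 and lowered 2 of the 10 IFN-γ signaling genes in Control, with Irf1 at 1.63, and raised 6 in TAK-243, with Irf8 at 2.15 and Irf1 at 1.65. Over all genes IFN-γ called 29% in Control and 10.5% in TAK-243. Of 11 other chemokines tested, TAK-243 raised 6 and lowered 3 without IFN-γ and raised 5 and lowered 2 with it. Over all genes it called 66.3% and 68.2%. The neutrophil attractants Cxcl2 (5.82 and 6.47) and Cxcl1 (3.34 and 3.43) rose, and Cxcl15 fell by 2.05 and 1.81. Of 2 receptors of the members that could be tested, Ackr3, which binds CXCL11, rose by 0.39 and 0.40. Of the enzymes that shed CXCL16 and CX3CL1, Adam17 rose by 0.12 without IFN-γ.

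In cells depleted of Uba1 by a guide, Cx3cl1 without IFN-γ was the single member that passed the test. Depletion and clone cannot be told apart in these cells. In these 8 libraries Cxcl9, Cxcl11 and Cx3cl1 alone were high enough for the test. EdgeR called 1 of 3 without IFN-γ, against 29.7% of the 15530 genes tested, and 0 of 3 with IFN-γ, against 39.4%.

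Cx3cl1 stood at 2.65 and 2.91 CPM in sgNC and 4.14 and 4.51 CPM in sgUba1. Both sgUba1 libraries were above both controls, with a log2 fold change of 0.64 ± 0.14 (SE; edgeR adjusted p = 0.00572). The call was lost with limma on log2(TPM + 1) and log2(TPM + 0.1) (adjusted p = 0.199 and 0.205). With IFN-γ the values were 3.42 and 3.47 CPM in sgNC and 3.89 and 4.07 CPM in sgUba1 (log2 fold change 0.21, edgeR adjusted p = 0.258).

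Cxcl10 had 3 and 0 counts in sgNC, 2 and 1 in sgNC with IFN-γ, 1 and 3 in sgUba1, and 17 and 6 in sgUba1 with IFN-γ. Only the last group was above 3 counts a library. Its 23 counts against 3 in sgNC with IFN-γ gave a depth-corrected ratio of 7.08, with a 95% interval of 2.14 to 36.8, and against 4 in sgUba1 without IFN-γ a ratio of 5.64 (1.93 to 22.4). These intervals cover counting error only, and most of the counts are in 1 of the 2 libraries.

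Cxcl9 stayed between 0.523 and 1.07 CPM and Cxcl11 between 0.781 and 1.38 CPM in the 8 libraries. The log2 fold changes for sgUba1 were -0.59 and 0.31 for Cxcl9 and 0.35 and -0.11 for Cxcl11, without and with IFN-γ (edgeR adjusted p = 0.186, 0.497, 0.417 and 0.805). Ccl5 had 1 count in 1 of the 8 libraries and 0 in the other 7. Cxcl16 had at most 2 counts in any of the 16 cell libraries and Cxcr3 at most 3. IFN-γ called 0 of 3 members in sgNC, against 3.88% of all genes, and 0 of 3 in sgUba1, against 2.85%, and the interaction 0 of 3, against 4.64%.

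The IFN-γ signaling genes nonetheless responded in these cells. IFN-γ raised 3 of 10 in sgNC, among them Irf1 (0.64 on the log2 scale) and Irf9 (0.44). In sgUba1 it raised 4 of 10, among them Irf1 (1.61), Irf8 (1.38) and Irf9 (0.96). Over all genes it called 3.88% in sgNC and 2.85% in sgUba1. With IFN-γ, sgUba1 raised 6 of the 10 and lowered 1, with Irf8 at 1.21 above sgNC, while of 10 NF-κB genes 1 rose and 4 fell. Of the 10 other chemokines tested 1 rose and 4 fell, the latter including Cxcl5 by 1.22 and Cxcl15 by 1.12. These list counts stand beside 39.4% of all genes called for sgUba1 with IFN-γ. Adam17 and Adam10 rose by 0.30 and 0.18 in that setting, and Ackr3 rose by 0.53.

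The drug and the guide were compared as differences of their effects in cells, between experiments run apart. Without IFN-γ the difference was called for Cxcl10 (edgeR adjusted p = 0.00223), against 55.3% of all genes, where the fitted value is no bound since Control was at 0. For Cx3cl1 it was 0.41 ± 0.26 (SE; edgeR adjusted p = 0.207). With IFN-γ it was called for Cx3cl1, at 0.83 ± 0.25 (SE; edgeR adjusted p = 0.00692), against 56.7%, and for Cxcl10 it was 1.72 ± 1.28 (SE; edgeR adjusted p = 0.274). The response of control cells to IFN-γ was not shown to differ between the experiments for any member, against 3.79% of all genes called, with an adjusted p of 0.111 for Cxcl10.

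Within groups of tumors the chemokines moved in pairs. For each gene log2 CPM was taken as the difference from its group's mean, over 35 tumors, so that differences between the means of labelled groups play no part. Myc-CaP tumors labelled sgUba1 were kept as a single group. Differences between those in doubt and the rest thus remain in these values, and the pairs were not repeated without the tumors in doubt. Of 21 pairs 16 had a positive Pearson r, and 3 passed the test (100000 permutations within groups, two-sided, Benjamini-Hochberg over 21 pairs), all 3 positive.

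Ccl5 and Cxcl16 were the closest pair, with r = 0.69 (permutation p = 3e-05, adjusted 0.00063) and rho = 0.75 (permutation p = 3e-05, adjusted 0.00063). It was 0.64 without Myc-CaP sgUba1 replicate 2 and OE replicate 1, the tumors farthest out in Ccl5, and 0.49 to 0.92 within the 4 experiments. Cxcl9 and Cxcl10 gave r = 0.64 (permutation p = 0.00164, adjusted 0.0172) and rho = 0.60 (permutation p = 0.00166, adjusted 0.0174), with r of 0.45 without Myc-CaP sgUba1 replicates 2 and 3 and 0.14 to 0.84 within experiments. Cxcl10 and Ccl5 gave r = 0.59 (permutation p = 0.00307, adjusted 0.0215) but rho = 0.47 (permutation p = 0.0134, adjusted 0.0939), with r of 0.43 without Myc-CaP sgUba1 replicate 2 and vehicle replicate 1 and 0.51 to 0.74 within experiments. Tumors may share an animal, and each point shares its library's depth between the genes.

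**Figure D5:**
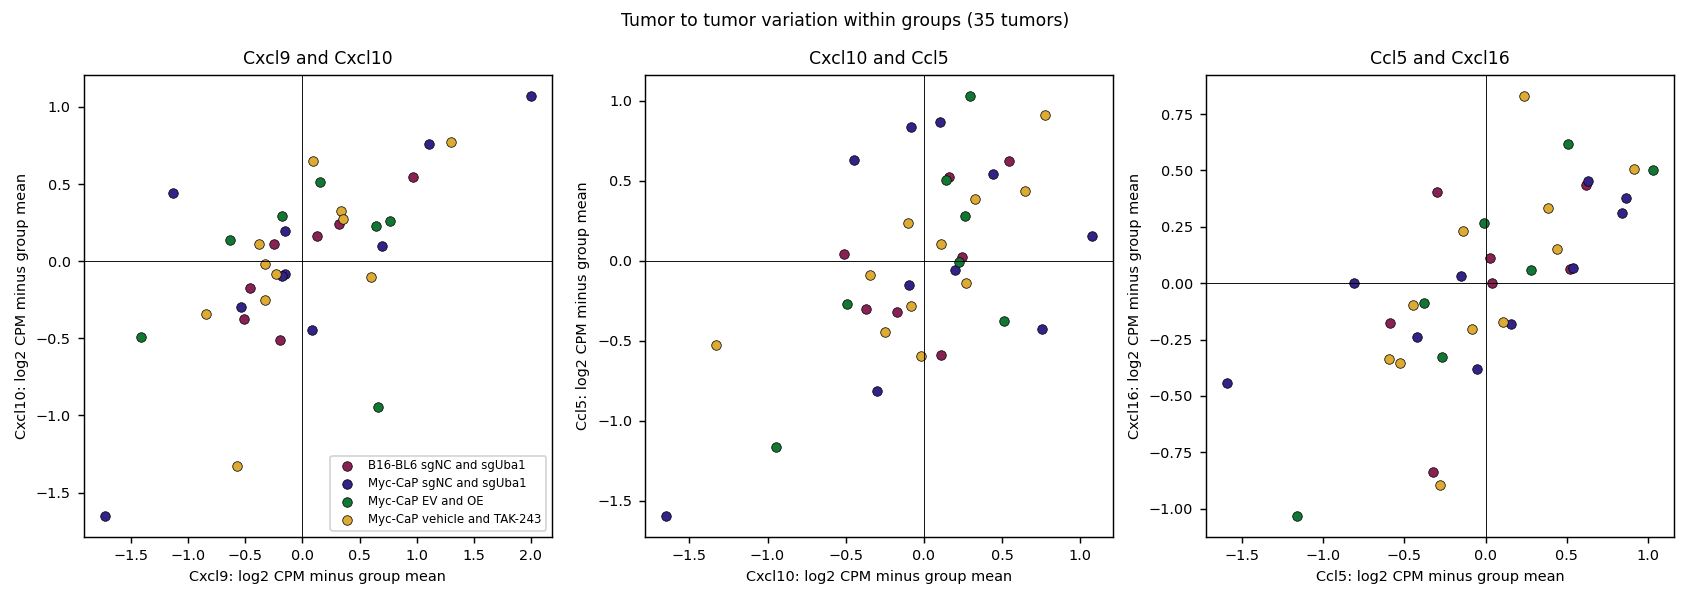
Log2 CPM minus the group mean in each of 35 tumors, coloured by experiment, for Cxcl9 and Cxcl10 (r = 0.64), Cxcl10 and Ccl5 (r = 0.59) and Ccl5 and Cxcl16 (r = 0.69). Within an experiment r ran from 0.14 to 0.92 over these pairs, and Myc-CaP sgUba1 replicates 2 and 3 lie at the ends for Cxcl9 and Cxcl10.

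The genes most like each member were ranked by Pearson r over the same 35 tumors among 13343 genes, as a description. For Cxcl9 they were the interferon-induced GTPase genes Iigp1 (0.83) and Gbp2 (0.82), and for Ccl5 H2-K2 (0.81), Tgtp1 (0.80) and Irf7 (0.79). Cxcl10 was closest to Tnfrsf14 (0.77), Fgl2 (0.77) and Cfb (0.76), and Cxcl16 to Tmem229b (0.83), Ggta1 (0.83) and Ms4a7 (0.82). Cx3cl1 was closest to Smug1 (0.73), Cxcl11 to Abhd4 (0.74) and Cxcr3 to Ppm1h (0.77). In the 16 cell libraries only the mean of each experiment was removed, so r there includes the effects of TAK-243, guide and IFN-γ. Among 11265 genes in those libraries Cxcl10 was closest to Carhsp1 (0.96), Ccl5 to Necap1 (0.99), Cx3cl1 to Foxo1 (0.95), Cxcl9 to Gm37584 (0.83) and Cxcl11 to Vps37c (0.84).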

How the data were processed

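Bulk RNA-seq libraries were grouped by their labels. The authors deposited expected counts per gene and TPM, estimated with kallisto on mm10 per the submitters' processing notes; how strand was handled is not given in the sources used here. Expected counts were rounded and tested where whole counts had been planned for. Genes passed filterByExpr, were scaled by TMM and were tested with edgeR 4.0.16 (R 4.3.3, quasi-likelihood, Benjamini-Hochberg over all genes tested, 0.05), each tumor experiment alone and the 8 cell libraries of an experiment together. An SE is the log2 fold change divided by the root of F. CPM use totals scaled by TMM within an experiment, so levels across experiments were scaled apart; log2 CPM in pairs has a prior count of 2. A group at 0 was set to 3 counts a library. Gene positions and shared 31-base words come from GENCODE (39142 of 40077 identifiers matched). Alternatives used DESeq2 1.42.0, limma 3.58.1 on log2(TPM + 1) or log2(TPM + 0.1), other filters and scalings, and left-out replicates. The members, the gene lists (signaling, other chemokines, receptors, processing enzymes and cell markers) and the named genes, which are all members, list members past the test and the 3 genes most like each member, were chosen with earlier results of these data known. Floors and intervals cover counting error only. The scripts were tested on simulated data. A few list genes are not reported here.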

Additional observations from a re-analysis of the deposited data

Results flagged for a closer look

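Within groups of 4 to 10 samples 35 sets of values (5 groups, 7 genes) were searched for a sample far from the others, and chance gives about 1 in 20 such sets. In 2 sets one was found, both in the Myc-CaP tumor of TAK-243 replicate 2, where Cx3cl1 stood at 19.5 CPM with the next tumor at 14.4 CPM and Cxcr3 at 0.398 CPM (11 counts) with the next at 0.141 CPM (4 counts). The same tumor had the highest Cxcl16 of its group (9.12 CPM). The effect of TAK-243 in cells differed from that of sgUba1 for 2 members, each by a test of the difference. Over all genes the same tests called 55.3% without IFN-γ and 56.7% with it, so these calls do not set the members apart. For Cxcl10 without IFN-γ it was 9.22 on the log2 scale (edgeR adjusted p = 0.00223), a fitted value against Control libraries at 0 and so no measure of size. For Cx3cl1 with IFN-γ it was 0.83 ± 0.25 (SE; edgeR adjusted p = 0.00692). The drug and guide experiments were separate sets of libraries, so the treatment and the experiment cannot be told apart in these differences beyond what each experiment's own controls remove.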

How the results depend on the processing

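Of 84 results on members and pairs, 15 passed their test; 0 of those changed direction and 11 passed under every alternative that gave them a value, 5 of them with a value under each. The other 6, Ccl5 and Cxcl10 with TAK-243 and Cxcl10 with IFN-γ, had none with at least 10 counts in every library, and Cxcl10 with IFN-γ had none with DESeq2 or, in Control, with only the groups compared. The alternatives that leave out tumors with doubtful Uba1 RNA, and those on differences between experiments, were chosen after seeing the data. Shares of all genes called are not given here for DESeq2, the other filters and scalings or the left-out replicates. The counts below thus show only how calls depend on processing, not whether the members stand out. In tumors the members called were 2 with DESeq2 for OE against EV, and for Myc-CaP sgUba1 2 with DESeq2, 0 without the 4 tumors in doubt and 0 to 1 leaving out one replicate, as for B16-BL6 sgUba1 (0 to 1). The replicate block gave 0 for Myc-CaP sgUba1 (Cxcl16 0.86, adjusted p = 0.248) and changed no other count by over 1.5 times; same-numbered samples correlated at -0.252 to 0.309 in tumors and -0.0192 to 0.0735 in cells, so the numbers do not pair samples. In cells, at least 10 counts in every library left 0 for IFN-γ in TAK-243, 0 for IFN-γ in Control, 1 for TAK-243 with IFN-γ and 2 without, since fewer members were tested. IFN-γ in TAK-243 gave 2 with limma-voom, 3 with no filter, 2 with only the groups compared and 1 to 2 leaving out one replicate; IFN-γ in Control gave 2, 0 and 1 to 2 with the last 3 settings. Guide cells with IFN-γ gave 1 with no filter and 0 to 1 leaving out one replicate, and without IFN-γ 0 on both TPM scales. The differences called were 1 for B16-BL6 minus Myc-CaP without the 4 tumors, 1 for the IFN-γ response with no filter, and 2 each for the TAK-243 and sgUba1 effects with limma-voom. Pairs on log2(TPM + 1) gave 5 called. DESeq2 gave no adjusted p for a member in the 2 IFN-γ comparisons of the drug experiment, so no count is given.

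Values that changed sign, none of them called, were for Cx3cl1 in B16-BL6 0.35 on log2(TPM + 0.1), 0.19 on log2(TPM + 1) and -0.3124 to 0.0139 leaving out one replicate (above 0 without sgUba1 replicate 4); for IFN-γ in sgNC cells Cx3cl1 -0.14 and -0.093 on the TPM scales and Cxcl11 0.0208 and 0.0086, and -0.2233 to 0.1723 leaving out one replicate; for IFN-γ in Control Cxcl11 -0.32 and -0.16 on the TPM scales and Cxcl9 -0.5543 to 0.48 leaving out one replicate (above 0 without Control replicate 2); for the TAK-243 interaction Cx3cl1 0.0051 with RLE factors, 0.0423 with at least 10 counts and -0.2629 to 0.3181 leaving out one replicate, Cxcl10 0.84 on log2(TPM + 1), and Cxcl11 0.0663 and 0.0016 on the TPM scales; Cxcl11 in Myc-CaP sgUba1 -0.0122 to 0.3254 leaving out one replicate (below 0 without sgNC replicate 1); and Cxcl9 with TAK-243 without IFN-γ -0.34 to 0.7811 leaving out one replicate (below 0 without replicate 1 of TAK-243 or of Control). Pairs on log2(TPM + 1) changed sign for Cx3cl1 with Ccl5 (-0.007), Cxcl10 (0.0934), Cxcl11 (0.17) and Cxcl9 (0.14) and for Cxcl11 with Cxcr3 (0.26, and 0.0049 with a prior count of 0.5). The cause of these changes was not tested. Depth limits Cxcr3 in Myc-CaP tumors and Cxcl10, Ccl5, Cxcl16 and Cxcr3 in guide cells, where most libraries held 3 counts or fewer.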

Other observations

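Cxcr3 and the CXCR3 ligands Cxcl9 and Cxcl10 stood highest in the same tumors of 1 group. The third ligand, Cxcl11, was highest in another tumor of that group, replicate 5 (4.05 CPM). Among the 7 Myc-CaP tumors labelled sgUba1, replicates 1 and 3 had the 2 highest values of Cxcr3 (1.78 and 1.68 CPM), of Cxcl9 (13.5 and 25.2 CPM) and of Cxcl10 (3.24 and 4.07 CPM), while Cxcl16 was below the group median in both (11.7 and 12.2 against 14.2 CPM). These 2 tumors had T and NK cell marker sums of 24.0 and 29.1 CPM, against 29.1 to 40.2 CPM in replicates 4 to 7. The pattern in this group was noticed after the values were seen and was not tested. Over the 35 tumors, with group means removed, Cxcr3 gave r of 0.29 with Cxcl9, 0.20 with Cxcl10 and -0.02 with Cxcl11. None of these passed the permutation test.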
